A study of Mus musculus with 2 samples.

Results

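Surface ectoderm outside the apical ridge was read from 2 single-cell RNA libraries of mouse hindlimb at E11.5 (FVB strain). A barcode was a member if it had at least 1000 detected genes, at most 10% of its UMIs from mitochondrial genes, at least 5 UMIs summed over Epcam, Cdh1, Krt14, Krt5, Trp63 and Wnt6 with at least 1 of Epcam, no UMI of Fgf8, and none of Cdh5, Lbx1 or Csf1r. The rule left 91 members in dual-enSERT-2 and 305 members in dual-enSERT-1, together 396 of the 24473 barcodes that passed the gene and mitochondrial limits. They made up 1.36% of the kept barcodes of dual-enSERT-2 (exact binomial 95% interval 1.10 to 1.67%) and 1.71% of those of dual-enSERT-1 (1.53 to 1.92%).

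Both genotypes had 2 fluorescent reporter genes inserted at the H11 safe-harbour locus. In both, the ZRS, the limb enhancer of Shh, drove mCherry, and a version of it with a single base substitution (the ZRS404G>A allele) drove eGFP. The label of dual-enSERT-2 places an element called SI between the units ZRS-mCherry and ZRS404G>A-eGFP and an element called B at each outer end, and the label of dual-enSERT-1 names the same units with neither element. Each genotype had 1 library, the labels give no number of pooled embryos, and construct, embryo and preparation cannot be told apart, so the values below carry no replicate check and no test between libraries was possible.

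The limb bud is a core of mesenchyme wrapped in a thin ectoderm. Along the distal rim the ectoderm thickens into the apical ectodermal ridge, which secretes FGFs that keep the mesenchyme growing, while the rest of the sheet is the future epidermis, with a basal layer and a transient outer layer called the periderm. Dorsal ectoderm makes the ligand Wnt7a, which turns on Lmx1b in the mesenchyme beneath it, and ventral ectoderm makes the transcription factor En1, which represses Wnt7a.

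The epithelial state is usually marked by genes that factors of the Snail and Zeb families repress through E-boxes in mesenchyme, and promoters of 3 genes that mark these cells are shown for that reason. Epcam, an adhesion molecule, belongs to the membership rule, Bhlha9 is a transcription factor of limb ectoderm, and Sfn (14-3-3 sigma) is an epithelial adaptor protein. The sequences run 5′ to 3′ from 250 bases before to 50 bases after the start of each gene in RefSeq, on the build GRCm38.p6, at chr17:87635729-87636028 on the plus strand for Epcam, chr11:76672220-76672519 on the plus strand for Bhlha9 and chr4:133602119-133602418 on the minus strand for Sfn. Capitals mark the E-box CACCTG, read as CACCTG or CAGGTG for its 2 strands.
Epcam: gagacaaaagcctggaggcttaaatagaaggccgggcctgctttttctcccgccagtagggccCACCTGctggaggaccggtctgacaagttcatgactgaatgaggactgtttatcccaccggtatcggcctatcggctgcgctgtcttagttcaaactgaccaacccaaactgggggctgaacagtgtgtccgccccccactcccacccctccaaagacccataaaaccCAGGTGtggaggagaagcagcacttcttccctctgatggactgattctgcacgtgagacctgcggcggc
Bhlha9: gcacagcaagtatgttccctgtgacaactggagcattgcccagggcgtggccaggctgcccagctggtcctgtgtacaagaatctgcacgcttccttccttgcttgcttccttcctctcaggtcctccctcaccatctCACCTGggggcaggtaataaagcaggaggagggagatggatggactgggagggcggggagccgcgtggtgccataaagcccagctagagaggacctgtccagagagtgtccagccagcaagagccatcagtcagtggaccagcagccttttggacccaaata
Sfn: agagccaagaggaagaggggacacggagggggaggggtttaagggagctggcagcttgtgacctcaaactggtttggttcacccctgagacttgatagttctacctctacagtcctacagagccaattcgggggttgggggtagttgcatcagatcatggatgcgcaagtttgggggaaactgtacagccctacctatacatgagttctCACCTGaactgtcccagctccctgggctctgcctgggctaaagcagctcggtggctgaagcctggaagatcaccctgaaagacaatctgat
Of 27025 promoters of this length, 5413 (20.03%) hold that E-box. Promoters of 15 of 20 genes looked up were read, and 7 of them hold it, namely Epcam, Krt5, Bhlha9, Sfn, Sost, Krt7 and Dsp. The promoters shown above were all taken from these. Those of Krt14, Wnt6, Wnt7a, En1, Fermt1, Pdgfa, Hspb1 and Wnt3 lack it. Cdh1, a gene of the membership rule, was not among the promoters read. The palindrome AACCGGTT, a form of the site bound by grainyhead factors, was in 0 of the 15 and in 41 of all promoters (0.152%). These matches are a description of the letters in the window.

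The members of dual-enSERT-2 held a median of 20508 UMIs (2453 to 178366) and 5611 genes, and those of dual-enSERT-1 a median of 14105 UMIs (2216 to 102249) and 4540 genes. Levels are given as CPM, a gene's share of the UMIs pooled over the cells of a group and library, in the usual scaling, and folds are log2 ratios of CPM with 1 CPM added to each. The pools of the members rest on 2342275 UMIs in dual-enSERT-2 and 5691023 UMIs in dual-enSERT-1. Intervals are exact, at 95%, and cover counting error only. The ridge cells used beside the members met the same rule but had at least 1 Fgf8 UMI (65 in dual-enSERT-2 and 101 in dual-enSERT-1). Mesenchyme cells had at least 5 UMIs of Prrx1, Prrx2 and Twist1 and none of the keratinocyte markers (3707 in dual-enSERT-2 and 11978 in dual-enSERT-1).

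Some members and one gene family call for care. One member of dual-enSERT-2, with 28645 UMIs, held 110 UMIs of Sprr2f and 73 of Ltf, had 66 of Epcam but 0 of Krt5, Trp63 and Pitx1, and had 8 of Xist and 0 of Ddx3y. Sprr2f and Ltf are best known from mature epithelia. All other members of that library together had 1 Sprr2f UMI, so this cell goes against the label, and levels and list counts that it moves by more than 1.5 times are given with and without it. More than 5 UMIs of Col1a1, Col3a1, Pdgfra and Prrx1 were seen in 14 members of dual-enSERT-2 and 66 of dual-enSERT-1, of which Scrublet, a doublet caller, marked 9 in dual-enSERT-2 and 40 in dual-enSERT-1. Haemoglobin and other erythroid genes summed to 34479 CPM in the members and 21290 CPM in the mesenchyme of dual-enSERT-2, and to 4480 CPM in the members and 2761 CPM in the mesenchyme of dual-enSERT-1. Of the members' haemoglobin UMIs, 5 cells held 94.8% in dual-enSERT-2 and 94.4% in dual-enSERT-1, and the near-identical copies of the adult globin genes cannot be kept apart with certainty. The libraries shared 49 deposited barcode sequences, none of which was a member in both.

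The cells carried the markers of their label, all of which the rule used, so their levels are a description. Epcam stood at 462 CPM in dual-enSERT-2 members (435 to 490) and 356 CPM in dual-enSERT-1 members (341 to 372). Trp63, the master regulator of stratified epithelium, was at 243 CPM in dual-enSERT-2 members and 243 CPM in dual-enSERT-1 members. Wnt6, a ligand of limb ectoderm, was at 215 CPM in dual-enSERT-2 members and 252 CPM in dual-enSERT-1 members. These 3 genes lay at like levels in both libraries. Krt5, a basal keratin, was at 187 CPM in dual-enSERT-2 members and 268 CPM in dual-enSERT-1 members, and Cdh1 (E-cadherin) at 82.0 CPM in dual-enSERT-2 members and 59.9 CPM in dual-enSERT-1 members. Krt14, the keratin partner of Krt5, was set apart by library, with 76.0 CPM (65.2 to 88.0) in dual-enSERT-2 members and 309 CPM (295 to 324) in dual-enSERT-1 members. After each cell was thinned to 5000 UMIs, which left out 5 members of dual-enSERT-2 and 21 of dual-enSERT-1, Krt14 was seen in 25.6% of dual-enSERT-2 members and 64.4% of dual-enSERT-1 members, against 0% of dual-enSERT-2 endothelial cells and 0.498% of dual-enSERT-1 endothelial cells, which should lack it. Without thinning the Krt14 shares of members were 52.7% in dual-enSERT-2 and 84.3% in dual-enSERT-1.

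Genes of other cell types were low. The 5 endothelial genes summed to 2.56 CPM in dual-enSERT-2 members and 2.11 CPM in dual-enSERT-1 members, with Cdh5 at 0 by the rule. The 5 muscle genes summed to 0.854 CPM in dual-enSERT-2 members and 4.04 CPM in dual-enSERT-1 members, and the 5 macrophage genes to 1.28 CPM in dual-enSERT-2 members and 2.28 CPM in dual-enSERT-1 members. Lbx1 of the muscle genes and Csf1r of the macrophage genes were also at 0 by the rule. The 5 genes of neural crest, glia and melanoblasts summed to 9.39 CPM in dual-enSERT-2 members and 10.9 CPM in dual-enSERT-1 members, with Sox10 at 0 in both, and the 3 neuron genes to 8.97 CPM in dual-enSERT-2 members and 8.08 CPM in dual-enSERT-1 members. The 15 limb mesenchyme genes were lower than in mesenchyme but not absent: they summed to 652 CPM in the members and 2659 CPM in the mesenchyme of dual-enSERT-2, and to 1067 CPM in the members and 3304 CPM in the mesenchyme of dual-enSERT-1. Their part in the levels below was not tested, and the counts over all genes were also taken without the cells that carry them.

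**Figure D1:**
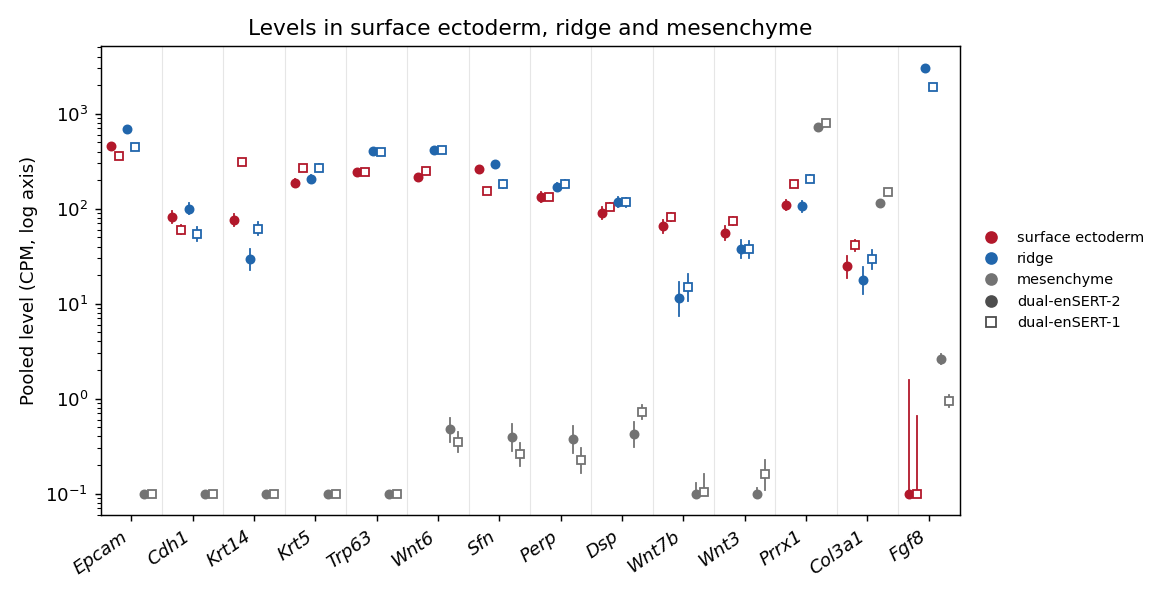
Pooled level (CPM, log axis) of 14 genes in surface ectoderm, ridge and mesenchyme, with filled circles for dual-enSERT-2, open squares for dual-enSERT-1 and lines for exact 95% Poisson intervals; values under 0.1 CPM are drawn at 0.1. The epithelial genes stand far above mesenchyme in surface ectoderm of both libraries, Fgf8 is at 0 in surface ectoderm by the rule, and Krt14 is the one of the 6 epithelial markers in which the libraries lie furthest apart (76.0 CPM in dual-enSERT-2 and 309 CPM in dual-enSERT-1 members).

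Against limb mesenchyme, the members stood out by an epithelial programme of adhesion, junction and basement membrane genes together with a set of secreted ligands. Of 7190 genes compared (those that reached 20 CPM in the members or in mesenchyme of each library), 357 (4.97%) were at least 2-fold higher in members in both libraries and 223 (3.1%) at least 2-fold lower. The cells were chosen by markers that travel with such genes, so these counts are a description. A listed gene was compared only where it reached that level, which epithelial genes did mostly through the members, so the counts over those lists were largely set by this limit.

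The genes with the largest folds, outside the rule, were transcription and signalling genes as well as structural ones. Bhlha9 had 249 CPM in members and 0.119 CPM in mesenchyme of dual-enSERT-2, and 242 CPM in members and 0.199 CPM in mesenchyme of dual-enSERT-1 (log2 fold 7.81 in dual-enSERT-2 and 7.66 in dual-enSERT-1). It was seen in 87.9% of dual-enSERT-2 members and 74.8% of dual-enSERT-1 members. Sfn had 263 CPM in members and 0.395 CPM in mesenchyme of dual-enSERT-2, and 153 CPM in members and 0.258 CPM in mesenchyme of dual-enSERT-1. Both genes were close to absent from mesenchyme in each library.

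Structural genes of epithelia made up much of the rest. Perp, a desmosome protein and target of Trp63, had 133 CPM in members and 0.375 CPM in mesenchyme of dual-enSERT-2, and 133 CPM in members and 0.224 CPM in mesenchyme of dual-enSERT-1. Fermt1 (kindlin-1), which activates integrins, had log2 folds of 6.54 in dual-enSERT-2 and 7.01 in dual-enSERT-1. Dsp (desmoplakin) had 90.1 CPM in members and 0.425 CPM in mesenchyme of dual-enSERT-2, and 105 CPM in members and 0.720 CPM in mesenchyme of dual-enSERT-1. The small heat shock protein gene Hspb1 had 337 CPM in members and 3.41 CPM in mesenchyme of dual-enSERT-2, and 282 CPM in members and 3.20 CPM in mesenchyme of dual-enSERT-1. Krt7, a keratin of simple epithelia, had log2 folds of 6.159 in dual-enSERT-2 and 5.999 in dual-enSERT-1, and Lypd6b had 6.09 in dual-enSERT-2 and 5.73 in dual-enSERT-1.

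Secreted factors and their inhibitors were prominent among the named genes. Pdgfa, a ligand of the mesenchymal receptor Pdgfra, stood at 691 CPM in members and 2.49 CPM in mesenchyme of dual-enSERT-2, and at 502 CPM in members and 5.46 CPM in mesenchyme of dual-enSERT-1. Pdgfra ran the other way, with 19.6 CPM in members and 85.9 CPM in mesenchyme of dual-enSERT-2, and 44.8 CPM in members and 161 CPM in mesenchyme of dual-enSERT-1. Sost, a secreted inhibitor of the Wnt co-receptor LRP, had 96.1 CPM in members and 0.0988 CPM in mesenchyme of dual-enSERT-2, and 84.7 CPM in members and 0.119 CPM in mesenchyme of dual-enSERT-1. Sost UMIs were seen in 62.6% of dual-enSERT-2 members and 55.7% of dual-enSERT-1 members.

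Of the Wnt ligands outside the rule, 3 of 5 compared were past the fold upward and 1 downward, where the median log2 fold over all genes was -0.06 in dual-enSERT-2 and -0.09 in dual-enSERT-1. Wnt3, the ligand that limb ectoderm needs to form a ridge in mouse, had 55.5 CPM in members and 0.0494 CPM in mesenchyme of dual-enSERT-2, and 74.9 CPM in members and 0.159 CPM in mesenchyme of dual-enSERT-1. Wnt7b had 65.3 CPM in members and 0.0593 CPM in mesenchyme of dual-enSERT-2, and 81.4 CPM in members and 0.104 CPM in mesenchyme of dual-enSERT-1. Wnt4 had log2 folds of 5.63 in dual-enSERT-2 and 5.53 in dual-enSERT-1. These 3 ligands were at or below 2.88 CPM in mesenchyme of both libraries. Wnt5b was lower, with 41.4 CPM in members and 86.5 CPM in mesenchyme of dual-enSERT-2, and 37.6 CPM in members and 82.0 CPM in mesenchyme of dual-enSERT-1. Wnt5a, at 136 CPM in members and 117 CPM in mesenchyme of dual-enSERT-2 and at 114 CPM in members and 186 CPM in mesenchyme of dual-enSERT-1, was not past the fold.

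Of 16 listed epithelial transcription and splicing factors, 6 reached the level for comparison, and these were past the fold upward. Grhl2, a grainyhead factor that maintains epithelial junctions, had 104 CPM in members and 0.612 CPM in mesenchyme of dual-enSERT-2, and 97.0 CPM in members and 0.854 CPM in mesenchyme of dual-enSERT-1. Esrp1, an epithelial splicing regulator, had log2 folds of 6.04 in dual-enSERT-2 and 5.49 in dual-enSERT-1. Of the AP-2 factors, Tfap2a had 72.6 CPM in members and 14.1 CPM in mesenchyme of dual-enSERT-2, and 94.5 CPM in members and 15.2 CPM in mesenchyme of dual-enSERT-1. Tfap2b had 213 CPM in members and 5.34 CPM in mesenchyme of dual-enSERT-2, and 367 CPM in members and 66.5 CPM in mesenchyme of dual-enSERT-1. The Tfap2b fold was thus larger in dual-enSERT-2 (5.08) than in dual-enSERT-1 (2.45), whose mesenchyme held more of it.

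Of 20 listed junction genes, 8 reached the level for comparison, and these were past the fold upward. The tight junction claudins Cldn6 and Cldn7 were both among them. Cldn7 stood at 189 CPM in dual-enSERT-2 members and 83.3 CPM in dual-enSERT-1 members. Cdh3 (P-cadherin) was less set apart, with 172 CPM in members and 44.6 CPM in mesenchyme of dual-enSERT-2, and 184 CPM in members and 62.5 CPM in mesenchyme of dual-enSERT-1. Of 8 listed epithelial proteases, inhibitors and trafficking genes, 6 were compared and 5 were past the fold, among them the membrane protease St14 (log2 folds 5.18 in dual-enSERT-2 and 4.20 in dual-enSERT-1) and its inhibitor Spint2 (3.73 in dual-enSERT-2 and 2.94 in dual-enSERT-1). Cd24a was the exception, at 457 CPM in members and 559 CPM in mesenchyme of dual-enSERT-2, and 362 CPM in members and 495 CPM in mesenchyme of dual-enSERT-1.

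Of 18 listed basement membrane and Fraser complex genes, 12 were compared, of which 11 were past the fold upward and 1 downward. The Fraser complex anchors embryonic epidermis to the dermis. Its member Frem2 had 158 CPM in members and 1.26 CPM in mesenchyme of dual-enSERT-2, and 189 CPM in members and 4.98 CPM in mesenchyme of dual-enSERT-1, and Fras1 had log2 folds of 2.98 in dual-enSERT-2 and 2.76 in dual-enSERT-1. Of the laminin receptors, Itga3 had log2 folds of 5.95 in dual-enSERT-2 and 5.13 in dual-enSERT-1, and Itga6 had 4.06 in dual-enSERT-2 and 3.22 in dual-enSERT-1. Nid2, a nidogen, was the gene that was lower, with 5.55 CPM in members and 28.5 CPM in mesenchyme of dual-enSERT-2, and 8.61 CPM in members and 29.0 CPM in mesenchyme of dual-enSERT-1.

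Receptors and response genes differed by pathway. Fgfr2, whose epithelial form answers mesenchymal Fgf10, had 245 CPM in members and 82.0 CPM in mesenchyme of dual-enSERT-2, and 312 CPM in members and 109 CPM in mesenchyme of dual-enSERT-1. Fgfr1 was lower, with log2 folds of -1.46 in dual-enSERT-2 and -1.10 in dual-enSERT-1, and so was Fgf10 (-2.41 in dual-enSERT-2 and -1.74 in dual-enSERT-1). Of 9 Wnt receptor and response genes, 3 were past the fold upward, among them the receptor Fzd6 and the receptor-degrading ligase gene Rnf43, and Nkd1, a Wnt feedback inhibitor, was past it downward. Of 6 Notch genes, Notch1 and its ligand Jag2 were higher, with log2 folds of 3.09 for Notch1 and 4.85 for Jag2 in dual-enSERT-2 and of 1.60 for Notch1 and 4.57 for Jag2 in dual-enSERT-1, while Notch3 and Hey1 were lower. No BMP gene of 14 was past the fold upward, and Bmp4, Grem1 and Msx1 were past it downward.

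Among the genes that were lowest in the members against mesenchyme were patterning transcription factors of the limb core. Msx1 had 35.01 CPM in members and 190 CPM in mesenchyme of dual-enSERT-2, and 44.3 CPM in members and 198 CPM in mesenchyme of dual-enSERT-1. Hoxa11, a gene of the middle limb segment, had log2 folds of -2.79 in dual-enSERT-2 and -2.20 in dual-enSERT-1, and Hoxa13, a gene of the digit region, -2.19 in dual-enSERT-2 and -2.27 in dual-enSERT-1. Tbx2, Lhx2, Zic5 and the secreted Wnt antagonist gene Frzb were lower to a like degree, with log2 folds between -2.86 and -2.10 in both libraries. Zeb1, one of the E-box repressors named above, had 27.3 CPM in members and 159 CPM in mesenchyme of dual-enSERT-2, and 43.2 CPM in members and 161 CPM in mesenchyme of dual-enSERT-1, whereas Snai2, of the Snail family, was not past the fold (log2 fold 0.83 in dual-enSERT-2 and 0.85 in dual-enSERT-1). Pitx1 and Tbx4, which set hindlimb identity, were lower as well, Pitx1 with 60.2 CPM in members and 325 CPM in mesenchyme of dual-enSERT-2, and 90.1 CPM in members and 350 CPM in mesenchyme of dual-enSERT-1. Hoxc10, another hindlimb gene, was at 130 CPM in members and 137 CPM in mesenchyme of dual-enSERT-2, and at 114 CPM in members and 110 CPM in mesenchyme of dual-enSERT-1, and so lay at like levels in both tissues. Retinoic acid genes were past the fold downward in 3 of 5 cases (Crabp1, Crabp2 and the degrading enzyme gene Cyp26b1), and 0 of 10 mitosis genes and 0 of 10 S phase genes were past it in either direction.

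Against the ridge, several ridge signalling genes were much lower in the members. Of 7110 genes compared, 71 (0.999%) were at least 2-fold higher in members in both libraries and 207 (2.91%) at least 2-fold lower. Fgf8, which the rule set to 0 in members, stood at 3017 CPM in dual-enSERT-2 ridge cells and 1897 CPM in dual-enSERT-1 ridge cells. None of the 8 junction, 12 basement membrane and 3 basal keratinocyte genes compared was past the fold in either direction. At the edge of the rule, 5 cells of dual-enSERT-2 and 6 of dual-enSERT-1 had a single Fgf8 UMI and were counted as ridge.

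Genes of Wnt reception, response and modulation were lower in members than in the ridge in 9 of 13 cases, none was higher, and the medians were -1.78 in dual-enSERT-2 and -1.46 in dual-enSERT-1, where the median over all genes was 0.01 in dual-enSERT-2 and 0.02 in dual-enSERT-1. Against mesenchyme 9 genes of this list were compared. Some of the 13 were thus compared through the ridge cells alone and could not be called higher. Rspo2, a secreted amplifier of Wnt signals, had 5.55 CPM in members and 560 CPM in ridge cells of dual-enSERT-2, and 5.45 CPM in members and 635 CPM in ridge cells of dual-enSERT-1. Axin2, a common readout of Wnt signals, had 13.2 CPM in members and 85.3 CPM in ridge cells of dual-enSERT-2, and 22.0 CPM in members and 62.2 CPM in ridge cells of dual-enSERT-1. Lef1, a nuclear partner of beta-catenin, had log2 folds of -1.58 in dual-enSERT-2 and -2.16 in dual-enSERT-1. The feedback genes Apcdd1, Notum, Znrf3 and Rnf43 lay the same way.

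BMP genes split. Bmp4 had 32.9 CPM in members and 467 CPM in ridge cells of dual-enSERT-2, and 38.1 CPM in members and 405 CPM in ridge cells of dual-enSERT-1. Bambi, a decoy receptor, had log2 folds of -4.13 in dual-enSERT-2 and -4.88 in dual-enSERT-1. Msx1, Msx2 and Bmp2 were also lower in members, whereas the receptor Bmpr1b was higher, with 32.0 CPM in members and 11.8 CPM in ridge cells of dual-enSERT-2, and 142 CPM in members and 38.8 CPM in ridge cells of dual-enSERT-1. Of the 14 BMP genes, 1 was higher and 5 were lower.

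Of the ridge genes, 9 of 13 were lower in members and none was higher. Against mesenchyme only 5 genes of this list reached the level for comparison. Most of the 13 were thus compared through the ridge cells, which were chosen by Fgf8, and could not be called higher. This count was therefore largely set by that limit. Fgf9, a ridge ligand that acts beside Fgf8, had log2 folds of -4.11 in dual-enSERT-2 and -2.88 in dual-enSERT-1, and Fgf17, another, lay the same way. Sp8, a factor needed for the ridge, was reduced less, with 73.4 CPM in members and 148 CPM in ridge cells of dual-enSERT-2, and 47.3 CPM in members and 161 CPM in ridge cells of dual-enSERT-1. Dlx5 had 9.82 CPM in members and 79.9 CPM in ridge cells of dual-enSERT-2, and 4.74 CPM in members and 115 CPM in ridge cells of dual-enSERT-1. Cd44, a hyaluronan receptor of the ridge, had log2 folds of -3.79 in dual-enSERT-2 and -5.24 in dual-enSERT-1. Jag2 and Wnt3 were not past the fold: Wnt3 stood at 55.5 CPM in members and 37.7 CPM in ridge cells of dual-enSERT-2, and at 74.9 CPM in members and 37.3 CPM in ridge cells of dual-enSERT-1.

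Outside these lists, some genes were close to absent in the members, and Kirrel3 was much lower than in the ridge but not absent. The kinase gene Srms had no UMI in members of either library, against 28.1 CPM in dual-enSERT-2 ridge cells and 27.3 CPM in dual-enSERT-1 ridge cells, which is at least 22.0-fold lower in dual-enSERT-2 members and at least 51.7-fold lower in dual-enSERT-1 members with 3 counts taken as the floor of a pool. Vwde and Aox3 had no UMI in dual-enSERT-2 members and were at 0.176 CPM each in dual-enSERT-1 members. In dual-enSERT-2 Vwde was at least 60.9-fold lower and Aox3 at least 47.8-fold lower in members than in ridge cells. The adhesion gene Kirrel3 had 37.1 CPM in members and 1121 CPM in ridge cells of dual-enSERT-2, and 14.2 CPM in members (8.16 CPM without the cell with most of it) and 572 CPM in ridge cells of dual-enSERT-1.

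Genes higher in the members than in the ridge included the Wnt inhibitor gene Sost, the ligand gene Wnt7b and some keratins. Synpo2, an actin-binding protein, had 28.2 CPM in members and 2.27 CPM in ridge cells of dual-enSERT-2, and 73.8 CPM in members and 5.38 CPM in ridge cells of dual-enSERT-1. Sost had 96.1 CPM in members and 15.4 CPM in ridge cells of dual-enSERT-2, and 84.7 CPM in members and 8.84 CPM in ridge cells of dual-enSERT-1. Wnt7b had 65.3 CPM in members and 11.3 CPM in ridge cells of dual-enSERT-2, and 81.4 CPM in members and 15.0 CPM in ridge cells of dual-enSERT-1 (6.95 CPM in dual-enSERT-2 ridge cells without the cell with most Wnt7b). Sost and Wnt7b therefore differed from the ridge as well as from mesenchyme. The ligand gene Bmp6, the homeobox gene Barx2 and the oestrogen receptor gene Esr1 lay the same way, with log2 folds of at least 2.24 in both libraries. Tfap2b had 213 CPM in members and 59.9 CPM in ridge cells of dual-enSERT-2, and 367 CPM in members and 40.3 CPM in ridge cells of dual-enSERT-1.

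Of 6 periderm genes compared, 3 were past the fold upward against the ridge, with medians of 1.54 in dual-enSERT-2 and 0.96 in dual-enSERT-1. Without the Sprr2f cell 5 were compared and 2 were past it, with medians of 0.85 in dual-enSERT-2 and 0.57 in dual-enSERT-1. Krt19 had 54.2 CPM in members (25.9 CPM without that cell) and 6.81 CPM in ridge cells of dual-enSERT-2, and 39.2 CPM in members and 8.84 CPM in ridge cells of dual-enSERT-1. Krt7 had 72.6 CPM in members and 19.1 CPM in ridge cells of dual-enSERT-2, and 71.5 CPM in members and 27.3 CPM in ridge cells of dual-enSERT-1, where 1 ridge cell held 52.1% of the Krt7 UMIs. The third, Krt17, had 22.6 CPM in members (9.51 CPM without the Sprr2f cell) and 3.63 CPM in ridge cells of dual-enSERT-2, and in dual-enSERT-1 it had 48.1 CPM in members and 5.76 CPM in ridge cells. Embryonic haemoglobin genes were also past this fold, with 54.3% of the dual-enSERT-2 UMIs of Hbb-bh1 and 59.6% of those of Hba-x in 1 cell, and without members that had over 1% haemoglobin or over 5 mesenchymal UMIs both turned lower in dual-enSERT-2 (log2 fold of -0.73 for Hbb-bh1 and -1.72 for Hba-x) and were no longer past the fold in dual-enSERT-1.

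**Figure D2:**
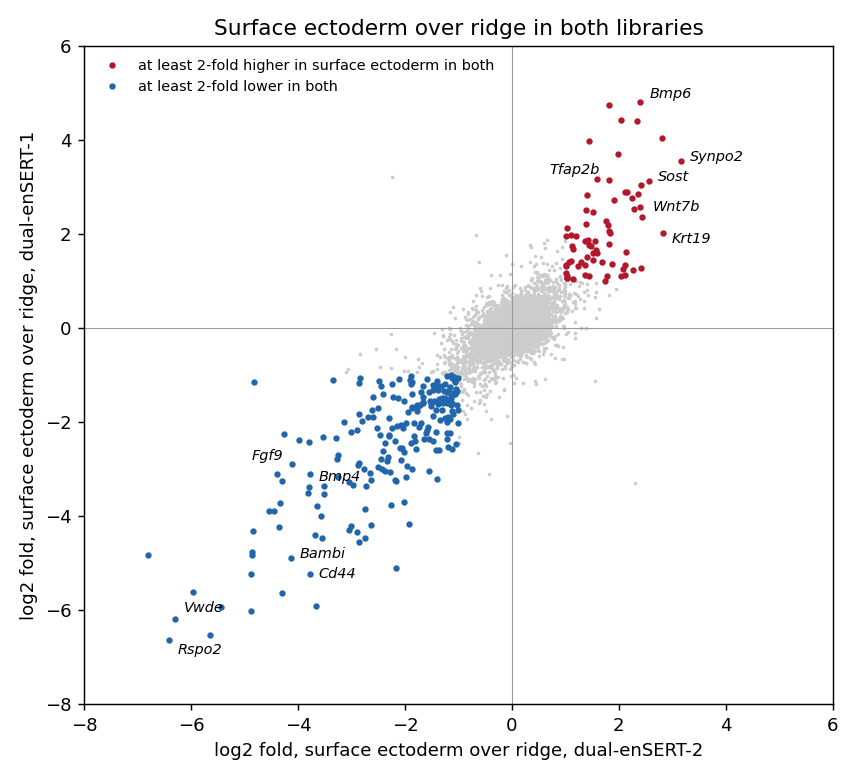
Log2 fold of surface ectoderm over ridge for each gene compared, dual-enSERT-2 on the x axis and dual-enSERT-1 on the y axis. Red points mark the 71 genes at least 2-fold higher in surface ectoderm in both libraries and blue points the 207 at least 2-fold lower, with Rspo2 lowest among the labelled genes (-6.42 in dual-enSERT-2 and -6.62 in dual-enSERT-1).

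Members of both libraries held dorsal and ventral cells, in opposite proportions. Wnt7a without En1 was seen in 7 of 91 members of dual-enSERT-2 (7.69%, 3.15 to 15.2%) and in 141 of 305 members of dual-enSERT-1 (46.2%, 40.5 to 52.0%). En1 without Wnt7a was seen in 68 members of dual-enSERT-2 (74.7%, 64.5 to 83.3%) and in 43 members of dual-enSERT-1 (14.1%, 10.4 to 18.5%). No member of dual-enSERT-2 and 1 member of dual-enSERT-1 held both, and 16 members of dual-enSERT-2 and 120 members of dual-enSERT-1 held neither. These intervals cover the counting of cells within a library, not the spread between embryos or preparations.

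Depth differed between these classes and libraries: Wnt7a cells had a median of 25963 UMIs in dual-enSERT-2 and 15019 in dual-enSERT-1, En1 cells 20664 in dual-enSERT-2 and 15094 in dual-enSERT-1, and cells with neither 11993 in dual-enSERT-2 and 12129 in dual-enSERT-1. After thinning to 5000 UMIs, Wnt7a alone was seen in 5.81% of dual-enSERT-2 members and 28.2% of dual-enSERT-1 members, and En1 alone in 43.0% of dual-enSERT-2 members and 9.15% of dual-enSERT-1 members. In thinned mesenchyme, which should lack both, Wnt7a was seen in 0.0278% of dual-enSERT-2 cells and 0.0515% of dual-enSERT-1 cells, and En1 in 0% of dual-enSERT-2 cells and 0.0601% of dual-enSERT-1 cells. The median depth of mesenchyme cells before thinning was 26619 UMIs in dual-enSERT-2 and 15204 UMIs in dual-enSERT-1.

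The pooled levels followed the shares. Wnt7a stood at 11.53 CPM (7.60 to 16.8, and 7.43 CPM without the cell with most of it) in dual-enSERT-2 members and 80.3 CPM (73.1 to 88.0) in dual-enSERT-1 members. En1 stood at 109 CPM (95.9 to 123) in dual-enSERT-2 members and 22.8 CPM (19.1 to 27.1) in dual-enSERT-1 members. In the ridge, which is known to hold En1 in its ventral part, the libraries were closer, with En1 at 146 CPM in dual-enSERT-2 and 204 CPM in dual-enSERT-1. Lmx1b, the mesenchymal target of Wnt7a, had 16.7 CPM in members and 24.4 CPM in mesenchyme of dual-enSERT-2, and 43.8 CPM in members and 109 CPM in mesenchyme of dual-enSERT-1. Lmx1b was thus lower in dual-enSERT-2 than in dual-enSERT-1 in both tissues. On GRCm39, Wnt7a spans chromosome 6 positions 91340959 to 91388460 (minus strand) and En1 chromosome 1 positions 120530108 to 120535721 (plus strand).

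**Figure D3:**
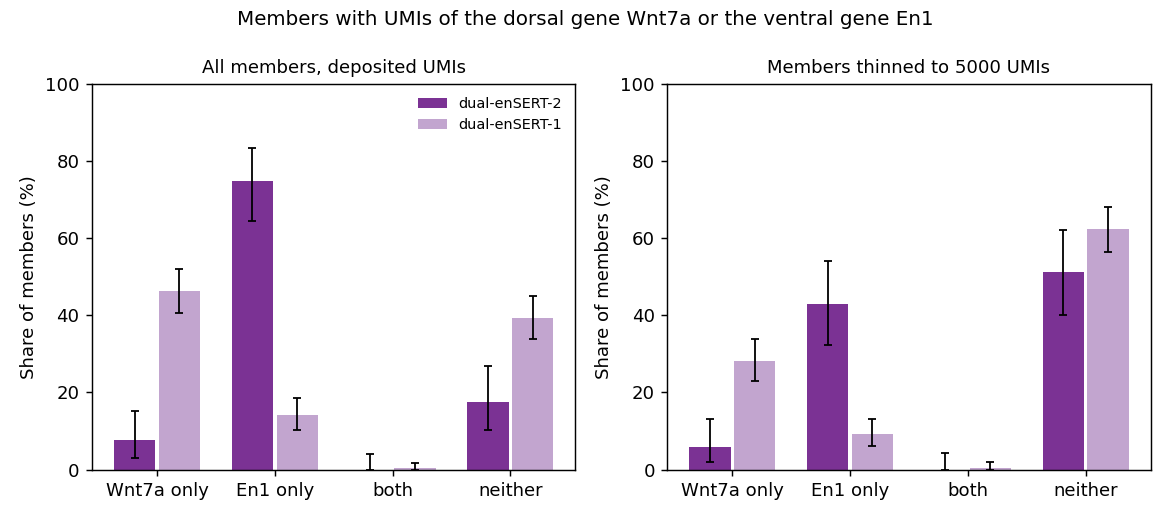
Share of members (%) with UMIs of Wnt7a only, En1 only, both or neither, on deposited UMIs (left) and after thinning to 5000 UMIs (right), with exact 95% binomial intervals. Dual-enSERT-2 members are mostly En1 cells (74.7%) and dual-enSERT-1 members are most often Wnt7a cells (46.2%), and the same gene leads after thinning (43.0% for En1 in dual-enSERT-2 and 28.2% for Wnt7a in dual-enSERT-1).

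Within the members, dorsal (Wnt7a) cells had more of the keratins Krt7, Krt8 and Krt19 than ventral (En1) cells. Ventral cells had more Bmp4 and Lef1, with Bmp4 thinly counted in the Wnt7a cells of dual-enSERT-2. Of 7015 genes compared, 47 (0.67%) were at least 2-fold higher in Wnt7a cells in both libraries and 25 (0.356%) at least 2-fold lower, on the scale with 1 CPM added. Of these 25, 10 had no UMI in a pool, and for 4 of them the bound from the floor of 3 counts was under 2-fold, which leaves 21. Of 11 junction genes compared, 2 were past the fold upward, with medians of 1.33 in dual-enSERT-2 and 0.35 in dual-enSERT-1. The Wnt7a side of dual-enSERT-2 rests on 7 cells with 204609 UMIs, one of which is the Sprr2f cell, so values without that cell are given for the genes that were higher.

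Nebl, an actin-binding protein, had 323 CPM in Wnt7a cells (369 CPM without the Sprr2f cell) and 25.8 CPM in En1 cells of dual-enSERT-2, and 102 CPM in Wnt7a cells and 2.30 CPM in En1 cells of dual-enSERT-1. Notch1 had 279 CPM in Wnt7a cells (324 CPM without that cell) and 31.1 CPM in En1 cells of dual-enSERT-2, and 57.2 CPM in Wnt7a cells and 5.74 CPM in En1 cells of dual-enSERT-1. Both were higher in dorsal cells of both libraries with or without the Sprr2f cell, but another cell held 51.5% of the dual-enSERT-2 UMIs of Nebl and 54.4% of those of Notch1. Without their top cell the dual-enSERT-2 levels in Wnt7a cells were 212 CPM for Nebl and 172 CPM for Notch1. Upk1a, a uroplakin of apical membranes, had 112 CPM in Wnt7a cells (131 CPM without that cell) and 21.6 CPM in En1 cells of dual-enSERT-2, and 21.4 CPM in Wnt7a cells and 2.30 CPM in En1 cells of dual-enSERT-1. One cell held 73.9% of the dual-enSERT-2 Upk1a UMIs, and without it the level was 39.8 CPM, which is not past the fold. Sp9, a factor known from the ridge, had 34.2 CPM in Wnt7a cells (39.8 CPM without that cell) and 5.27 CPM in En1 cells of dual-enSERT-2, and 57.2 CPM in Wnt7a cells and 13.8 CPM in En1 cells of dual-enSERT-1. Egfem1 and the potassium channel gene Kcnb2 lay the same way, with log2 folds of at least 2.04 in both libraries, and 77.8% of the 9 dual-enSERT-2 UMIs of Egfem1 were in 1 cell. In En1 cells, Nebl and Upk1a in dual-enSERT-1 and Egfem1 in dual-enSERT-2 had 2 UMIs each. That is under the floor of 3 counts, so these 3 genes were thinly counted there.

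Periderm genes were past the fold upward in 5 of 6 cases, with medians of 3.16 in dual-enSERT-2 and 1.40 in dual-enSERT-1, and without the Sprr2f cell in 4 of 5, with medians of 1.91 in dual-enSERT-2 and 1.40 in dual-enSERT-1, where the median over all genes was -0.05 in dual-enSERT-2 and 0.00 in dual-enSERT-1. Krt8 had 777 CPM in Wnt7a cells (381 CPM without the Sprr2f cell) and 75.9 CPM in En1 cells of dual-enSERT-2, and 107 CPM in Wnt7a cells and 42.5 CPM in En1 cells of dual-enSERT-1. Krt7 had 357 CPM in Wnt7a cells (159 CPM without that cell) and 44.3 CPM in En1 cells of dual-enSERT-2, and 89.6 CPM in Wnt7a cells and 33.3 CPM in En1 cells of dual-enSERT-1. Krt19 had 391 CPM in Wnt7a cells (73.9 CPM without that cell) and 16.9 CPM in En1 cells of dual-enSERT-2, and 54.1 CPM in Wnt7a cells and 18.4 CPM in En1 cells of dual-enSERT-1. In these 3 keratins the direction was the same without the odd cell, while the level in dual-enSERT-2 dropped by more than 1.5 times. Krt17 behaved otherwise in dual-enSERT-2: it had 166 CPM in Wnt7a cells and 10.0 CPM in En1 cells, but 17.0 CPM in Wnt7a cells without the odd cell, which is not past the fold, and in dual-enSERT-1 65.7 CPM in Wnt7a cells and 6.89 CPM in En1 cells. The claudin gene Cldn3 was also higher, with 357 CPM in Wnt7a cells (273 CPM without that cell) and 29.5 CPM in En1 cells (16.3 CPM without the cell with most of it) of dual-enSERT-2, and 23.9 CPM in Wnt7a cells and 5.74 CPM in En1 cells of dual-enSERT-1.

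Genes lower in Wnt7a than in En1 cells were thinly counted in dual-enSERT-2. Cntn5, a neural adhesion molecule, had no UMI in Wnt7a cells and 26.3 CPM in En1 cells of dual-enSERT-2, at least 1.80-fold lower, and 6.29 CPM in Wnt7a cells and 138 CPM in En1 cells of dual-enSERT-1, where 1 cell held 76.7% of the En1-cell UMIs and the level without it was 34.2 CPM. Ebf1, a transcription factor, had no UMI in Wnt7a cells and 49.0 CPM in En1 cells of dual-enSERT-2, at least 3.34-fold lower, and 91.5 CPM in Wnt7a cells and 279 CPM in En1 cells (85.0 CPM without the cell with most of it) of dual-enSERT-1, where its direction turned (log2 fold 2.63) without members that had over 5 mesenchymal UMIs or over 1% haemoglobin. The potassium channel gene Kcnq5 had no UMI in Wnt7a cells and 53.2 CPM in En1 cells of dual-enSERT-2, at least 3.63-fold lower, and 11.9 CPM in Wnt7a cells and 140 CPM in En1 cells of dual-enSERT-1. These bounds follow from only 7 Wnt7a cells in dual-enSERT-2. Bmp4 had UMIs on both sides in dual-enSERT-2, with 9.77 CPM in Wnt7a cells and 34.3 CPM in En1 cells. That Wnt7a-cell level was under the floor of 3 counts (14.7 CPM), so Bmp4 was thinly counted too. In dual-enSERT-1 Bmp4 had 30.5 CPM in Wnt7a cells and 73.5 CPM in En1 cells. Lef1, also counted on both sides, had log2 folds of -1.72 in dual-enSERT-2 and -1.26 in dual-enSERT-1. The Wnt receptor gene Fzd1 and Dlx1 were also lower. Of 8 limb mesenchyme genes compared, Zeb1 and Cdh2 were past the fold downward, and the list median was -2.08 in dual-enSERT-2 (-0.88 with uncounted genes at their bound) and -0.30 in dual-enSERT-1. The part of mesenchymal RNA in the ventral pool was not tested. Globin genes past this fold drew between 97.5 and 98.4% of the En1-cell UMIs of dual-enSERT-1 from 1 cell, and 91 to 93% of the Wnt7a-cell UMIs from another.

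**Figure D4:**
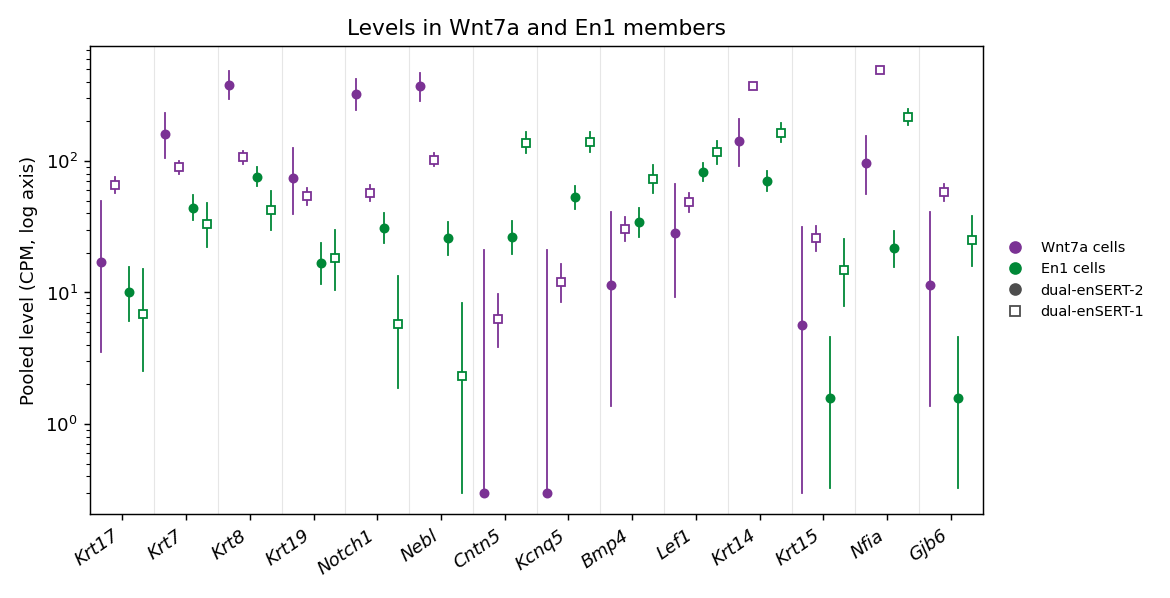
Pooled level (CPM, log axis) of 14 genes in Wnt7a and En1 members, with filled circles for dual-enSERT-2, open squares for dual-enSERT-1 and lines for exact 95% Poisson intervals; the Sprr2f cell is left out of the dual-enSERT-2 Wnt7a cells, and values under 0.3 CPM are drawn at 0.3. Notch1 and Nebl are higher in Wnt7a cells of both libraries, Cntn5 and Kcnq5 are lower, and Nfia and Gjb6 are lower in dual-enSERT-2 within the En1 cells as well.

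Between the libraries, the members of dual-enSERT-2 had less Nfia, Gjb6 and Krt15 and more of the globin genes. Genes of the membership rule, Krt14 among them, were left out of the counts below. Some of the genes that differed by side were within 2-fold, such as Nebl, with 61.5 CPM in dual-enSERT-2 and 68.002 CPM in dual-enSERT-1 members, and Notch1, with 61.5 CPM in dual-enSERT-2 and 39.01 CPM in dual-enSERT-1 members. Of 7480 genes with at least 20 CPM in either library, 102 (1.36%) were at least 2-fold higher in dual-enSERT-2 members and 171 (2.29%) at least 2-fold lower. Of these 273 genes, 90 were past the fold in the same direction in mesenchyme, and 155 lay the same way past the fold among En1 cells alone. The matching shares over all 7480 genes were not counted. En1 cells are also part of the members, with 1897606 of the 2342275 UMIs in dual-enSERT-2. Both overlaps are a description. Of the 171 lower genes, 40 were at least 2-fold higher in Wnt7a than in En1 cells of dual-enSERT-1, against 119 of all 7480. Of the 102 higher genes, 18 were at least 2-fold lower in Wnt7a than in En1 cells of dual-enSERT-1, against 46 of all 7480. Wnt7a cells held 3180817 of the 5691023 member UMIs of dual-enSERT-1. The same cells thus entered both comparisons, and these counts are a description too.

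Nfia, a transcription factor of the nuclear factor I family, was among the lower genes, with 27.3 CPM in dual-enSERT-2 members and 411 CPM in dual-enSERT-1 members (ratio 0.0665, 0.0511 to 0.0853). Nfia was lower in mesenchyme too, at 161 CPM in dual-enSERT-2 and 599 CPM in dual-enSERT-1. Within En1 cells it had 21.6 CPM in dual-enSERT-2 and 217 CPM in dual-enSERT-1, so the difference was seen at the same side of the limb. Gjb6 (connexin 30), a gap junction protein of epidermis, had 2.13 CPM in dual-enSERT-2 members and 46.2 CPM in dual-enSERT-1 members, and within En1 cells 1.58 CPM in dual-enSERT-2 and 25.3 CPM in dual-enSERT-1. It was seen in 5 dual-enSERT-2 members and 106 dual-enSERT-1 members, and in mesenchyme it was at 0 CPM in dual-enSERT-2 and 0.119 CPM in dual-enSERT-1. Adarb2, of the RNA editing enzyme family, had no UMI in dual-enSERT-2 members and 40.1 CPM in dual-enSERT-1 members (60 of 305 cells), at least 31.3-fold lower. Adarb2 was also a dorsal gene in dual-enSERT-1, with 53.4 CPM in Wnt7a cells and 3.45 CPM in En1 cells.

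The basal keratins Krt14 and Krt15 were also lower in dual-enSERT-2 members. Krt14 belongs to the membership rule, so its levels are a description. Krt15 had 1.71 CPM in dual-enSERT-2 members and 19.9 CPM in dual-enSERT-1 members, and within En1 cells 1.58 CPM in dual-enSERT-2 and 14.9 CPM in dual-enSERT-1, where 1 cell held 76.9% of the Krt15 UMIs and the level without it was 3.53 CPM, not past the fold. Krt14 within En1 cells had 70.6 CPM in dual-enSERT-2 and 164 CPM in dual-enSERT-1. Krt5, in contrast, was within 2-fold. Brinp1 had 11.1 CPM in dual-enSERT-2 members and 74.5 CPM in dual-enSERT-1 members and was near 0 in mesenchyme, at 0.385 CPM in dual-enSERT-2 and 0.815 CPM in dual-enSERT-1. Nrp2, a semaphorin receptor, was lower in members (17.1 CPM in dual-enSERT-2 and 108 CPM in dual-enSERT-1) and in mesenchyme (log2 fold -2.95). Egfem1, Ebf3, Xkr4, Pcdh9, Hpgds and Sncaip completed the lower genes, with log2 folds between -4.01 and -2.62.

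The genes with the largest folds upward rested on the single odd cell or on globin. Sprr2f had 47.4 CPM in dual-enSERT-2 members and no UMI in dual-enSERT-1 members, at least 89.9-fold higher, and Ifi202b had 38.4 CPM in dual-enSERT-2 members and none in dual-enSERT-1 members, at least 72.9-fold higher. For these genes and for Ltf, Ly6a, Plac8, Spp1, Clu and Ank, that cell supplied between 83.5 and 100% of the dual-enSERT-2 UMIs. Without it, 11 of the 12 largest folds belonged to globin and other erythroid genes that were higher in dual-enSERT-2 mesenchyme too. The remaining gene, the lipoprotein receptor relative Lrp1b, had 43.7 CPM in dual-enSERT-2 members and 5.97 CPM in dual-enSERT-1 members, with a log2 fold of 1.67 in mesenchyme.

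The reporters, driven by a mesenchymal limb enhancer, were lower in members than in mesenchyme of the same library. eGFP had 14.1 CPM (9.70 to 19.8) in members and 27.0 CPM in mesenchyme of dual-enSERT-2, a ratio of 0.521 (0.358 to 0.734). In dual-enSERT-1 eGFP had 60.8 CPM (54.6 to 67.6) in members and 151 CPM in mesenchyme, a ratio of 0.402 (0.360 to 0.446). A single doublet-marked member of dual-enSERT-2, with 178366 UMIs and 65 UMIs of the mesenchymal genes, held 84.8% of the eGFP UMIs, and without it the level there was 2.31 CPM. mCherry had 6.40 CPM in members (4.16 CPM without the same cell) and 21.4 CPM in mesenchyme of dual-enSERT-2, and 13.5 CPM in members and 56.3 CPM in mesenchyme of dual-enSERT-1.

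On thinned counts, eGFP was seen in 1.16% of members, 8.51% of mesenchyme cells and 6.15% of endothelial cells of dual-enSERT-2, and in 16.5% of members (12.4 to 21.4%), 27.5% of mesenchyme cells and 12.9% of endothelial cells (8.63 to 18.4%) of dual-enSERT-1. Median depths before thinning were 24190 UMIs in dual-enSERT-2 and 22788 UMIs in dual-enSERT-1 endothelial cells. In dual-enSERT-2 the intervals of members (0.0294 to 6.31%) and endothelial cells (1.70 to 15.0%) overlap. The share of eGFP members was within the interval of endothelial cells in dual-enSERT-1, so no expression in members is read from these shares. By pooled level, eGFP in members was 1.54 times that of endothelial cells in dual-enSERT-2 (0.871 to 2.77). Without the doublet-marked member named above, eGFP in dual-enSERT-2 members was at 2.31 CPM, below the 9.16 CPM of endothelial cells. In dual-enSERT-1 the ratio was 2.11 (1.77 to 2.53, from 60.8 CPM in members and 28.8 CPM in endothelial cells). With the limits given below, dual-enSERT-1 members were at 34.1 CPM. The part of other doublets and of mesenchymal RNA in these ratios was not tested. Without thinning, eGFP was seen in 4.396% of dual-enSERT-2 members and 40.0% of dual-enSERT-1 members. The shares of endothelial cells were higher, at 19.1% in dual-enSERT-2 and 52.4% in dual-enSERT-1. mCherry was seen in 2.33% of thinned members and 0% of thinned endothelial cells of dual-enSERT-2, and in 4.23% of thinned members and 5.97% of thinned endothelial cells of dual-enSERT-1. Limiting members to cells with at most 5 UMIs of the mesenchymal genes and at most 1% haemoglobin UMIs, a choice made after seeing the data, left 76 members in dual-enSERT-2 and 237 in dual-enSERT-1, with eGFP at 1.21 CPM in dual-enSERT-2 and 34.1 CPM in dual-enSERT-1.

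Of the Hedgehog genes, Shh was at 4.27 CPM in dual-enSERT-2 members (10 UMIs in 3 cells) and 1.76 CPM in dual-enSERT-1 members (10 UMIs in 4 cells), with 8 of the 10 in dual-enSERT-2 and 6 of the 10 in dual-enSERT-1 in 1 doublet-marked cell, and without these cells at 0.924 CPM in dual-enSERT-2 and 0.706 CPM in dual-enSERT-1, against 7.43 CPM in dual-enSERT-2 mesenchyme and 7.88 CPM in dual-enSERT-1 mesenchyme. Ptch1, the receptor and a target of Hedgehog signals, stood at 137 CPM in members and 140 CPM in mesenchyme of dual-enSERT-2, and at 132 CPM in members and 142 CPM in mesenchyme of dual-enSERT-1. It was lower in endothelial cells, at 47.9 CPM in dual-enSERT-2 and 49.9 CPM in dual-enSERT-1. Gli1, another target, had 12.8 CPM in members and 20.02 CPM in mesenchyme of dual-enSERT-2, and 13.9 CPM in members and 17.5 CPM in mesenchyme of dual-enSERT-1. Lmbr1, which hosts the native enhancer, was at 19.6 CPM in dual-enSERT-2 members and 21.6 CPM in dual-enSERT-1 members. Boc, a Hedgehog co-receptor, was past the fold downward against mesenchyme, and Gas1, another co-receptor, was past it upward against the ridge (90.1 CPM in members and 33.6 CPM in ridge cells of dual-enSERT-2, and 120 CPM in members and 41.1 CPM in ridge cells of dual-enSERT-1).

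**Figure D5:**
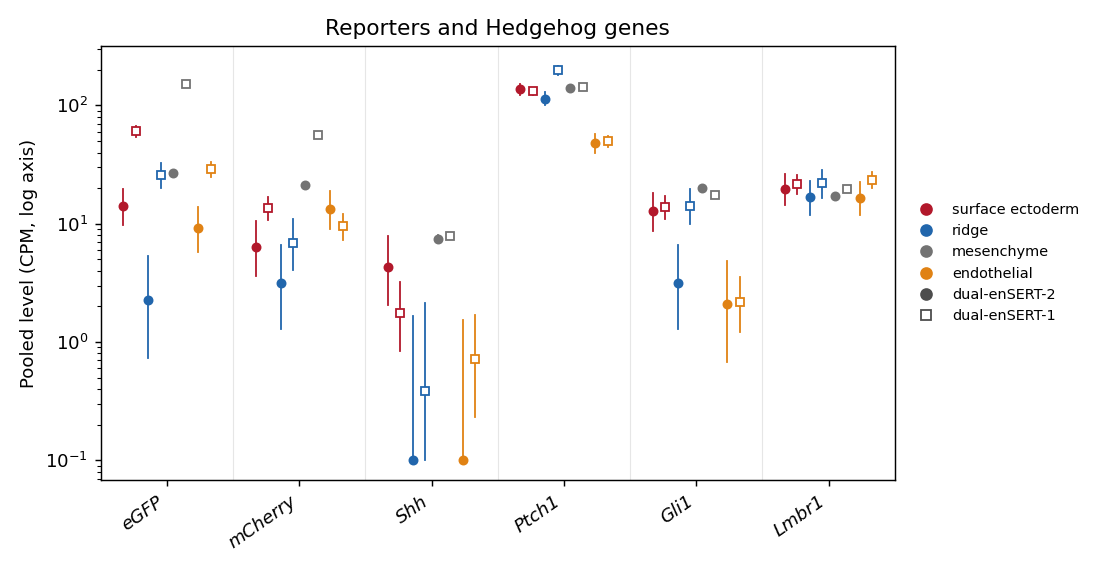
Pooled level (CPM, log axis) of both reporters and 4 genes of the Hedgehog pathway or its enhancer locus in surface ectoderm, ridge, mesenchyme and endothelial cells, with filled circles for dual-enSERT-2, open squares for dual-enSERT-1 and lines for exact 95% Poisson intervals; values under 0.1 CPM are drawn at 0.1. eGFP in surface ectoderm lies below mesenchyme in both libraries (14.1 against 27.0 CPM in dual-enSERT-2 and 60.8 against 151 CPM in dual-enSERT-1), while Ptch1 is near the mesenchymal level in both.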

How the data were processed

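The authors deposited raw counts of UMIs for each gene and barcode, which per the file headers came from Cell Ranger 7.0.1. The submitters' processing notes give another release, Cell Ranger 3.1.0, together with Seurat 4 and mm39, so the release behind the counts is uncertain. Which annotation was used, and how intronic reads and strand were handled, is not given in the sources. Overlapping and antisense genes therefore cannot be separated with certainty. Cells were dissociated with collagenase II and run on the 10x 3′ v3.1 chemistry, per the labels' protocols.

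The deposited matrices held 8885 barcodes (184301053 UMIs) for dual-enSERT-2 and 20508 barcodes (298653282 UMIs) for dual-enSERT-1, of which 6683 in dual-enSERT-2 and 17790 in dual-enSERT-1 met the gene and mitochondrial limits. Of these, 172 in dual-enSERT-2 and 483 in dual-enSERT-1 reached 5 marker UMIs. At the edge of the rule, 1 member of dual-enSERT-2 and 16 of dual-enSERT-1 had exactly 5, and 3 cells of dual-enSERT-2 and 23 of dual-enSERT-1 stayed outside with 4. The members and the gene lists were chosen with earlier results of these data known. Mesenchyme cells had at least 5 UMIs of Prrx1, Prrx2 and Twist1 and 0 of Epcam, Cdh1, Krt14, Krt5, Trp63, Cdh5, Lbx1 and Csf1r, and endothelial cells had at least 2 UMIs of Cdh5 and 0 of Epcam. Doublets were kept, and removing those called by Scrublet (expected rate 8%) was an alternative.

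Counts were pooled per library and cell group and given as CPM. Folds used a pseudocount of 1 CPM. With 1 library per genotype no test was run. A gene of a cell contrast was past the fold at an absolute log2 fold of at least 1 in the same direction in both libraries, with at least 20 CPM in either group in both. Named were up to 12 genes per direction with the largest smaller fold, the rule genes left out, 12 per direction between libraries, and up to 6 genes of each list by level; others named were chosen after their values were seen. List members were counted where they met the limit of 20 CPM. A count of 0 was given a floor of 3 counts per pool. Intervals were exact (Poisson, Clopper-Pearson) at 95%. Alternatives were other marker and gene limits, doublet removal, limits on mesenchymal and globin UMIs, another pseudocount and level limit, the mean over cells, another total, thinning, leaving out single cells (for some genes the cell with most of their UMIs, chosen after seeing the data), En1 cells alone and dual-enSERT-1 alone. Promoters came from RefSeq on GRCm38.p6 and coordinates from GENCODE M39 on GRCm39. The tools were Scanpy 1.11.5, pandas 2.3.3, SciPy 1.17.1, NumPy 2.4.6, matplotlib 3.10.9 and Python 3.11.15, and the fold step was tested on simulated data. Some named genes are not reported here.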

Additional observations from a re-analysis of the deposited data

How the results depend on the processing

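No paired analysis was possible because each genotype had 1 library and no test was run. Of 224 comparisons of a main result with an alternative, 178 kept their value within the limit set (counts within 1.5 times, shares and ratios within their interval) and 46 moved. Limiting members to at most 5 UMIs of the mesenchymal genes and 20 of haemoglobin left 6 members in dual-enSERT-2, with 0% Wnt7a cells, 50% En1 cells and 0% of members with either reporter. That limit gave 354 genes lower than in mesenchyme, 1834 higher and 1784 lower between libraries, an eGFP ratio to mesenchyme of 0 in dual-enSERT-2 and 0.225 in dual-enSERT-1 and an mCherry ratio of 0 in dual-enSERT-2 and 0.154 in dual-enSERT-1; the Wnt7a and En1 contrast gave no value there. At most 5 mesenchymal UMIs and 1% haemoglobin, limits added after seeing the data, gave 338 genes lower than in mesenchyme, 88 higher in Wnt7a cells, eGFP ratios of 0.0448 in dual-enSERT-2 and 0.225 in dual-enSERT-1, and mCherry ratios of 0.0849 in dual-enSERT-2 and 0.155 in dual-enSERT-1. Without Scrublet doublets, 85 genes were higher in Wnt7a cells, the eGFP ratio was 0.0963 in dual-enSERT-2 and 0.245 in dual-enSERT-1, and the mCherry ratio 0.146 in dual-enSERT-2 and 0.178 in dual-enSERT-1. Without the member with most eGFP UMIs, the eGFP ratio in dual-enSERT-2 was 0.0855.

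A limit of 50 CPM left 187 genes higher and 130 lower than mesenchyme, 30 higher and 125 lower than the ridge, 18 higher and 9 lower in Wnt7a cells, and 37 higher and 66 lower between libraries, since fewer genes were compared. With the mean over cells in place of pools, 176 genes were higher between libraries, the eGFP ratio was 0.121 in dual-enSERT-2 and 0.310 in dual-enSERT-1, and the mCherry ratio in dual-enSERT-2 was 0.155. Thinning gave 279 genes higher and 173 lower in Wnt7a cells, 28.2% Wnt7a cells in dual-enSERT-1, and En1 cells at 43.0% in dual-enSERT-2 and 9.15% in dual-enSERT-1. Dual-enSERT-1 alone gave 139 higher and 63 lower in Wnt7a cells. At least 10 marker UMIs gave 53.9% Wnt7a cells in dual-enSERT-1, and unthinned counts gave 40.0% of dual-enSERT-1 members with eGFP and 13.4% with mCherry.

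Of 1272 refits of folds over 96 named genes, 1035 kept their value, 218 moved and 19 changed sign in a library. With at most 5 mesenchymal and 20 haemoglobin UMIs, folds over the ridge turned to -0.96 for Hbb-bh1, -1.67 for Hba-x and -3.96 for Prkcb, and between libraries to -0.88 for Plac8, -1.56 for Clu and -1.42 for Ank. With the limits added later, folds over the ridge were -0.73 for Hbb-bh1 and -1.72 for Hba-x, and Wnt7a over En1 folds were 0.26 for Hba-x, 0.21 for Hba-a1 and 2.63 for Ebf1. Thinning gave Wnt7a over En1 folds of 2.82 for Hbb-bh1, 4.04 for Hba-x, 4.06 for Hba-a1 and 4.30 for Hbb-y. Without the Sprr2f cell, folds between libraries were -0.23 for Ltf, Ly6a and Spp1, and among En1 cells Spp1 was at -1.10. For all but those of the left-out cell, the cause was not tested. Depth limits the 7 Wnt7a cells of dual-enSERT-2, where a gene below 14.7 CPM had fewer than 3 expected UMIs.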

Other observations

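Genes that varied most among members of both libraries, by the variance of Pearson residuals over 9500 genes, were ribosomal and mitochondrial RNA genes, histone genes and a few patterning genes. Sema3a, a secreted guidance cue, had 250 CPM in members and 94.2 CPM in mesenchyme of dual-enSERT-2, and 941 CPM in members and 149 CPM in mesenchyme of dual-enSERT-1. It also differed by side, with 494 CPM in Wnt7a cells and 219 CPM in En1 cells of dual-enSERT-2, and 1290 CPM in Wnt7a cells and 358 CPM in En1 cells of dual-enSERT-1. Sdk1, an adhesion molecule, had 290 CPM in members and 109 CPM in ridge cells of dual-enSERT-2, and 513 CPM in members and 71.1 CPM in ridge cells of dual-enSERT-1.

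Igfbp5, which binds insulin-like growth factors, had 604 CPM in members and 2.90 CPM in mesenchyme of dual-enSERT-2, and 474 CPM in members and 22.2 CPM in mesenchyme of dual-enSERT-1. Robo2, a receptor for Slit proteins, was seen in 32 of 91 members of dual-enSERT-2 and 173 of 305 members of dual-enSERT-1, with 114 CPM in members and 433 CPM in mesenchyme of dual-enSERT-2 and 409 CPM in members and 1074 CPM in mesenchyme of dual-enSERT-1. Mecom, a transcription factor gene, had 231 CPM in members and 1183 CPM in mesenchyme of dual-enSERT-2, and 346 CPM in members and 1290 CPM in mesenchyme of dual-enSERT-1. The part of mesenchymal RNA in the members that held Robo2 or Mecom was not tested.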
